A study of Arabidopsis thaliana with 12 samples.

Results

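The comparison described here sets whole seedlings of Arabidopsis thaliana exposed for 3 h to volatiles of the strain GT22 of Tolypocladium inflatum, a fungus, against control seedlings of the same time. Its members were the rows of the 3 h table that carry a gene name and average at least 1 FPKM over the volatile and control values: 18018 of 26797 rows, or 67.2%. FPKM expresses the fragments of a transcript relative to its length and to all fragments mapped. The labels give 2 libraries for the volatile group and 2 for the control group at 3 h, out of 12 in 6 groups (volatile or control at 3, 24 and 48 h), and name no genotype, age or medium. The labels do not say whether the libraries came from separate cultures, so the p-values may measure technical spread only. The series title ties the fungus to growth promotion and to relief of copper and pathogen stress; the seedlings used here are labelled with neither stress.

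The authors' deposited table holds a single FPKM value for each gene in each group, and beside them the statistic, p-value and q-value of the comparison. The values of the single libraries and the sequencing depth are therefore not known here, and no SD can be given. The error printed after a log2 fold change is the implied error, the fold change divided by the deposited statistic; no header states that the statistic is built this way. A gene "rose" or "fell" only where its q-value in the authors' deposited table was under 0.05. In whole seedlings a change in RNA per cell and a change in the number of cells of a type cannot be told apart.

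Several of the responses below belong to well-known plant pathways. Under low oxygen, plant cysteine oxidases stop marking the group VII ethylene response factors for degradation, and these factors then switch on genes of fermentation, a haemoglobin and the oxidases themselves. Glucosinolates are the sulfur-containing defence compounds of the cabbage family; the aliphatic ones are made from methionine, whose chain is first lengthened and then converted by a core pathway. Iron-deficient Arabidopsis roots reduce ferric iron, take up ferrous iron and secrete coumarins, while ferritin stores surplus iron. Phosphate-starved plants replace phospholipids by galactolipids and free phosphate from other compounds, under the transcription factor PHR1.

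The stretch upstream of the start is shown for 4 genes that passed the test, because short letters known from low-oxygen and phosphate promoters could be looked for there. Each line gives the 250 bases before the RefSeq gene start in TAIR10.1, 5′ to 3′ on the gene's own strand. Capitals mark AAACCA or its reverse complement, the core of the anaerobic element, in PDC1 and PCO1, and the phosphate starvation element P1BS, GNATATNC, in PPsPase1 and MGD3. The windows are chr4:15954804-15955053 on the minus strand for PDC1, chr5:4898391-4898640 on the plus strand for PCO1, chr1:27466349-27466598 on the minus strand for PPsPase1 and chr2:4742912-4743161 on the plus strand for MGD3.
PDC1: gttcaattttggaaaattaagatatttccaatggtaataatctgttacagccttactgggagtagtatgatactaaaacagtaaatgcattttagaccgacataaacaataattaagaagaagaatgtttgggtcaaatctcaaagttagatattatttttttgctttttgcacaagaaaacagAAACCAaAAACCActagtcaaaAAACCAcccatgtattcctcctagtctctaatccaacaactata
PCO1: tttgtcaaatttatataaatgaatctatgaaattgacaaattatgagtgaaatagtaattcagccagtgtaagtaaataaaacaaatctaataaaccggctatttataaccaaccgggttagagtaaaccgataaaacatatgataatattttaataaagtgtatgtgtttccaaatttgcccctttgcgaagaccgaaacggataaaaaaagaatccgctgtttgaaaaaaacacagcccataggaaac
PPsPase1: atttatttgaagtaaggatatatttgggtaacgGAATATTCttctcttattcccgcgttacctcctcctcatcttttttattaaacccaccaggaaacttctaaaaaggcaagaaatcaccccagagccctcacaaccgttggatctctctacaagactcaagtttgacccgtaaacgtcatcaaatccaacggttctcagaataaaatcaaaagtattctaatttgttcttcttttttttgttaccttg
MGD3: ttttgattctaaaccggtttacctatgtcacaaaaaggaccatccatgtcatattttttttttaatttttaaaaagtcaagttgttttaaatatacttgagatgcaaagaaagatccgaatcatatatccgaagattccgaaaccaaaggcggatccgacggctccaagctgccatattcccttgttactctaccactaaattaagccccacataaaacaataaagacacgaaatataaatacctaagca

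PDC1 held 3 copies of AAACCA, which began at positions -66, -59 and -44 from the start. PCO1 held none in this window, nor did HRA1 and HB1, the other genes of the low-oxygen list that rose. PPsPase1 held 1 P1BS match, at -217, and MGD3 none. Both strands were searched, and none of the 5 motifs tried contains another. AAACCA stood in 9 of the 23 low-oxygen genes measured, 39.1%, in 11 of the 28 aliphatic glucosinolate genes, 39.3%, and in 27.3% of 27443 protein-coding genes over windows of the same length. It stood in 2 of the 9 single genes that rose, 22.2%, and in 2 of the 10 that fell. P1BS stood in 6 of the 25 phosphate starvation genes measured, 24.0%, and in 5.46% of all. The core bound by TGA factors, TGACG, stood in 16 of 34 detoxification genes, 47.1%, and in 18.6% of all. TTGACC, 1 form of the W-box bound by WRKY factors, stood in 4 of the 10 genes that fell and in 1 of 9 that rose, against 12.2% of all. Other forms of the W-box were not searched. The G-box CACGTG stood in 1 that fell, CYP81D8, and in none that rose. These are counts of letters and not of bound sites.

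Few rows passed the test at 3 h. In the authors' deposited table, 20 of 17990 tested members had a q-value under 0.05, or 0.111%: 10 rose (0.0556%) and 10 fell (0.0556%). At an unadjusted p-value under 0.05, the authors' deposited table held 384 members, or 2.13%, of which 167 were higher (0.928%) and 217 lower (1.21%) under the volatiles. Every called row carries 5e-05, the smallest p-value listed there (q = 0.0443); for the next p-value, 0.0001, q was 0.0749 in the authors' deposited table. The log2 fold changes of all 17989 members with a value in both groups had a median of -0.01 and an SD of 0.24, and 78.3% of them lay within 0.2 of 0. Of these members 8574 lay above 0 and 9414 below. These counts and the shares above are the base for the counts by list below. A log2 fold change of at least 1 was seen in 58 members and of -1 or less in 88.

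Scatter depended on level. Among the 1380 members between 1 and 2 FPKM the SD of the log2 fold change was 0.51, and none of them was called although 5.22% of them differed by 1 or more on the log2 scale. Among the 7395 members between 10 and 50 FPKM the SD was 0.16 and 7 rows were called. Between 100 and 500 FPKM it was 0.12 over 1282 rows, with no call, and at 500 FPKM and above it was 0.19 over 267 rows, again with no call. The median also moved with level, and was -0.04 between 2 and 5 FPKM and 0.07 at 500 FPKM and above.

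**Figure D1:**
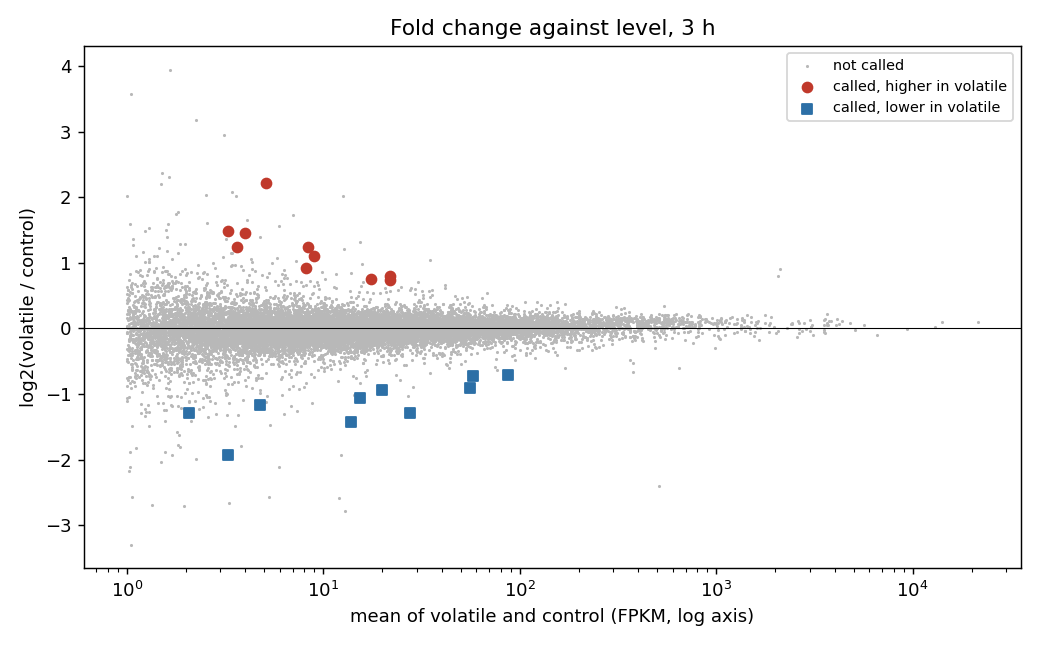
Log2 fold change of volatile over control (vertical axis) against the mean FPKM of both groups on a log axis (horizontal axis) for the members with a value in both groups at 3 h. Red circles are the 10 rows that rose and blue squares the 10 that fell; grey points were not called and spread most at low levels, with an SD of 0.51 between 1 and 2 FPKM.

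Markers of both shoot and root were present, as the whole-seedling label says. The 10 shoot markers read 1490 to 22219 FPKM in volatile seedlings and 1609 to 20738 FPKM in control seedlings, and the 14 root markers 2.12 to 2465 FPKM and 2.16 to 2359 FPKM. Flower markers summed to 3.79 FPKM in volatile seedlings and 3.39 FPKM in control seedlings over 6 genes, with AP1 and LFY listed at 0 in both. All 6 seed storage and oil body markers were lower in volatile seedlings, at a sum of 2.06 FPKM against 5.83 FPKM in control seedlings, and none was called. The most abundant members were the Rubisco small subunit RBCS1A, at 22219 FPKM in volatile and 20738 FPKM in control seedlings, RBCS3B, at 14536 and 13652 FPKM, the light-harvesting gene CAB1, at 13004 and 12869 FPKM, PSBR, at 9354 and 9454 FPKM, and LHB1B2, at 6361 and 6831 FPKM. None of the 5 was called.

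Genes of the low-oxygen list, which does not hold every gene of that response, made up 4 of the 10 rows that rose. PCO1 (AT5G15120, chromosome 5, 4898642 to 4900581), a cysteine oxidase that senses oxygen, had 8.42 FPKM in volatile seedlings and 1.81 FPKM in control seedlings, a log2 fold change of 2.22 ± 0.44. HRA1 (AT3G10040, chromosome 3), a trihelix factor that restrains the ethylene response factors, had 4.82 FPKM against 1.73 FPKM in control seedlings, 1.48 ± 0.36. HB1, a haemoglobin that scavenges nitric oxide, had 12.3 FPKM against 5.71 FPKM in control seedlings, a 2.15-fold difference. PDC1, the pyruvate decarboxylase of ethanol fermentation whose promoter is printed above, had 10.7 FPKM against 5.63 FPKM in control seedlings, 0.92 ± 0.28. For all 4 the authors' deposited table lists q = 0.0443.

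Of the 27 low-oxygen genes listed, 23 were members; 21 of them lay above 0 and 2 below, and their median log2 fold change was 0.47, against -0.01 for all members. By the authors' deposited table, 12 had an unadjusted p-value under 0.05 and were higher, and none was lower at that level. Over all tested members the shares were 0.928% higher and 1.21% lower. Within the sensors, PCO2 had 5.65 FPKM in volatile and 3.03 FPKM in control seedlings (p = 0.0029, q = 0.785), whereas PCO4 had 10.8 and 10.6 FPKM and PCO5 14.3 and 14.2 FPKM, by the authors' deposited table. PCO1 and PCO2 are the oxidases known to be induced by low oxygen, and PCO4 and PCO5 those known to be expressed in air. Among the transcription factors, the induced HRE1 had 7.67 FPKM against 4.79 FPKM in control seedlings (p = 0.00905), and the factors known to be made in air had p-values above 0.05: RAP2.2 had 94.2 and 76.1 FPKM, RAP2.3 105 and 90.3 FPKM, and RAP2.12 103 and 96.9 FPKM, by the authors' deposited table. HRE2, also on the list, was too low to be a member and lay the other way from HRE1. It had 0.0835 FPKM in volatile and 0.621 FPKM in control seedlings, -2.89 ± 2.26 (p = 0.156 in the authors' deposited table). LBD41, a low-oxygen marker, was measured only in a row merged with its neighbour, at 62.5 FPKM against 47.6 FPKM in control seedlings (p = 0.0194 in the authors' deposited table).

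Fermentation enzymes did not all pass together. ADH1, alcohol dehydrogenase, had 7.31 FPKM in volatile and 3.67 FPKM in control seedlings, with a log2 fold change of 0.99 ± 0.55 and p = 0.0163 (q near 1) by the authors' deposited table. PDC2 had 49.3 and 41.1 FPKM, the lactate dehydrogenase LDH1 24.1 and 20.6 FPKM, and the alanine aminotransferase ALAAT1 83.7 and 79.6 FPKM, none under an unadjusted p-value of 0.05. The sucrose synthases SUS1, at 9.94 and 10.4 FPKM, and SUS4, at 1.13 and 1.36 FPKM, were the 2 members below 0. Other genes known as induced were the ethylene receptor ETR2, at 12.8 FPKM against 7.60 FPKM in control seedlings (p = 0.0001, q = 0.0749), the desaturase SAD6, at 2.23 against 0.984 FPKM (p = 0.00145), the NADPH oxidase RBOHD, at 11.9 against 8.56 FPKM (p = 0.00575), and the phosphofructokinase PFK6, at 8.88 against 6.54 FPKM (p = 0.0241), with p-values from the authors' deposited table. WIP4 showed the widest implied error among the members of the list, 1.60 ± 1.41.

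Enzymes of aliphatic glucosinolate synthesis were also among the genes that rose. CYP79F1 (AT1G16410, chromosome 1, 5608807 to 5611426), which starts the core pathway from lengthened methionine, rose to 5.85 FPKM in volatile seedlings against 2.13 FPKM in control seedlings, 1.46 ± 0.38. BCAT4 (AT3G19710), the aminotransferase that starts chain lengthening, rose to 27.4 FPKM against 16.5 FPKM in control seedlings, 0.73 ± 0.26. A row that merges AT3G58980 with AT3G58990, the isopropylmalate isomerase subunit IPMI1 of the same chain, rose to 27.9 FPKM against 16.1 FPKM in control seedlings. CYP79F2, the neighbour and close relative of CYP79F1, had 12.4 and 8.98 FPKM and was not called; reads from the pair may be shared between them, so how the difference divides is uncertain.

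The list covered 28 members, of which 27 lay above 0, with a median of 0.36. At an unadjusted p-value under 0.05, the authors' deposited table had 13 of them higher and 1 lower, against 0.928% and 1.21% of all tested members. In chain lengthening all 9 members lay above 0 with a median of 0.45, from BCAT3, at 92.8 FPKM in volatile and 84.5 FPKM in control seedlings, to BCAT4. The condensing enzyme MAM1 had 37.9 FPKM against 25.4 FPKM in control seedlings (p = 0.0011), MAM3 32.5 against 25.3 FPKM (p = 0.03), the isomerase subunit IPMI2 42.1 against 29.5 FPKM (p = 0.00425) and the plastid keto acid carrier BAT5 18.1 against 12.3 FPKM (p = 0.0104), by the authors' deposited table. In the core pathway all 11 lay above 0 with a median of 0.36. CYP83A1, which acts after CYP79F1, had 28.8 FPKM against 19.2 FPKM in control seedlings (p = 0.0007), and the last enzyme, the sulfotransferase SOT17, 19.0 against 12.1 FPKM (p = 0.0005) by the authors' deposited table. None of these had a q-value under 0.05.

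Later and regulatory steps were mixed. Among the flavin monooxygenases that oxidise the side chain, FMOGS-OX1 had 2.30 FPKM in volatile and 1.11 FPKM in control seedlings (1.06 ± 0.50) and FMOGS-OX4 19.2 and 24.7 FPKM (-0.36 ± 0.25, p = 0.0364), the single member of the list below 0, by the authors' deposited table. The regulator MYB28 had 38.1 and 37.5 FPKM and its relative MYB29 2.37 and 1.63 FPKM, and neither had a p-value under 0.05 by the authors' deposited table. The transporters GTR1 and GTR2, which load glucosinolates into the phloem, had 22.7 and 21.8 FPKM and 35.0 and 31.0 FPKM. AKN2, an adenosine phosphosulfate kinase that supplies the sulfate donor of the sulfotransferases, had 50.2 FPKM against 32.9 FPKM in control seedlings, 0.61 ± 0.24 (p = 0.00025, q = 0.143) by the authors' deposited table.

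Indole glucosinolate genes, which start from tryptophan, had a median close to that of all members: 10 of 17 members lay above 0, the median was 0.03 and none was called. CYP83B1 had 96.4 FPKM in volatile and 75.7 FPKM in control seedlings (p = 0.0285) and the methyltransferase IGMT1 9.35 and 13.1 FPKM (p = 0.0157), in opposite directions, by the authors' deposited table. The regulators MYB51, at 5.48 and 5.81 FPKM, and MYB34, at 25.2 and 26.0 FPKM, had p-values above 0.05 by the authors' deposited table. All 9 tryptophan synthesis members lay above 0, by 0.01 to 0.29, with no p-value under 0.05. The median of -0.18 over 18 sulfur assimilation members included APR3, at 67.1 FPKM against 86.5 FPKM in control seedlings (p = 0.0431), and LSU3, a sulfur deficiency marker, at 5.87 against 10.4 FPKM (p = 0.023) by the authors' deposited table.

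**Figure D2:**
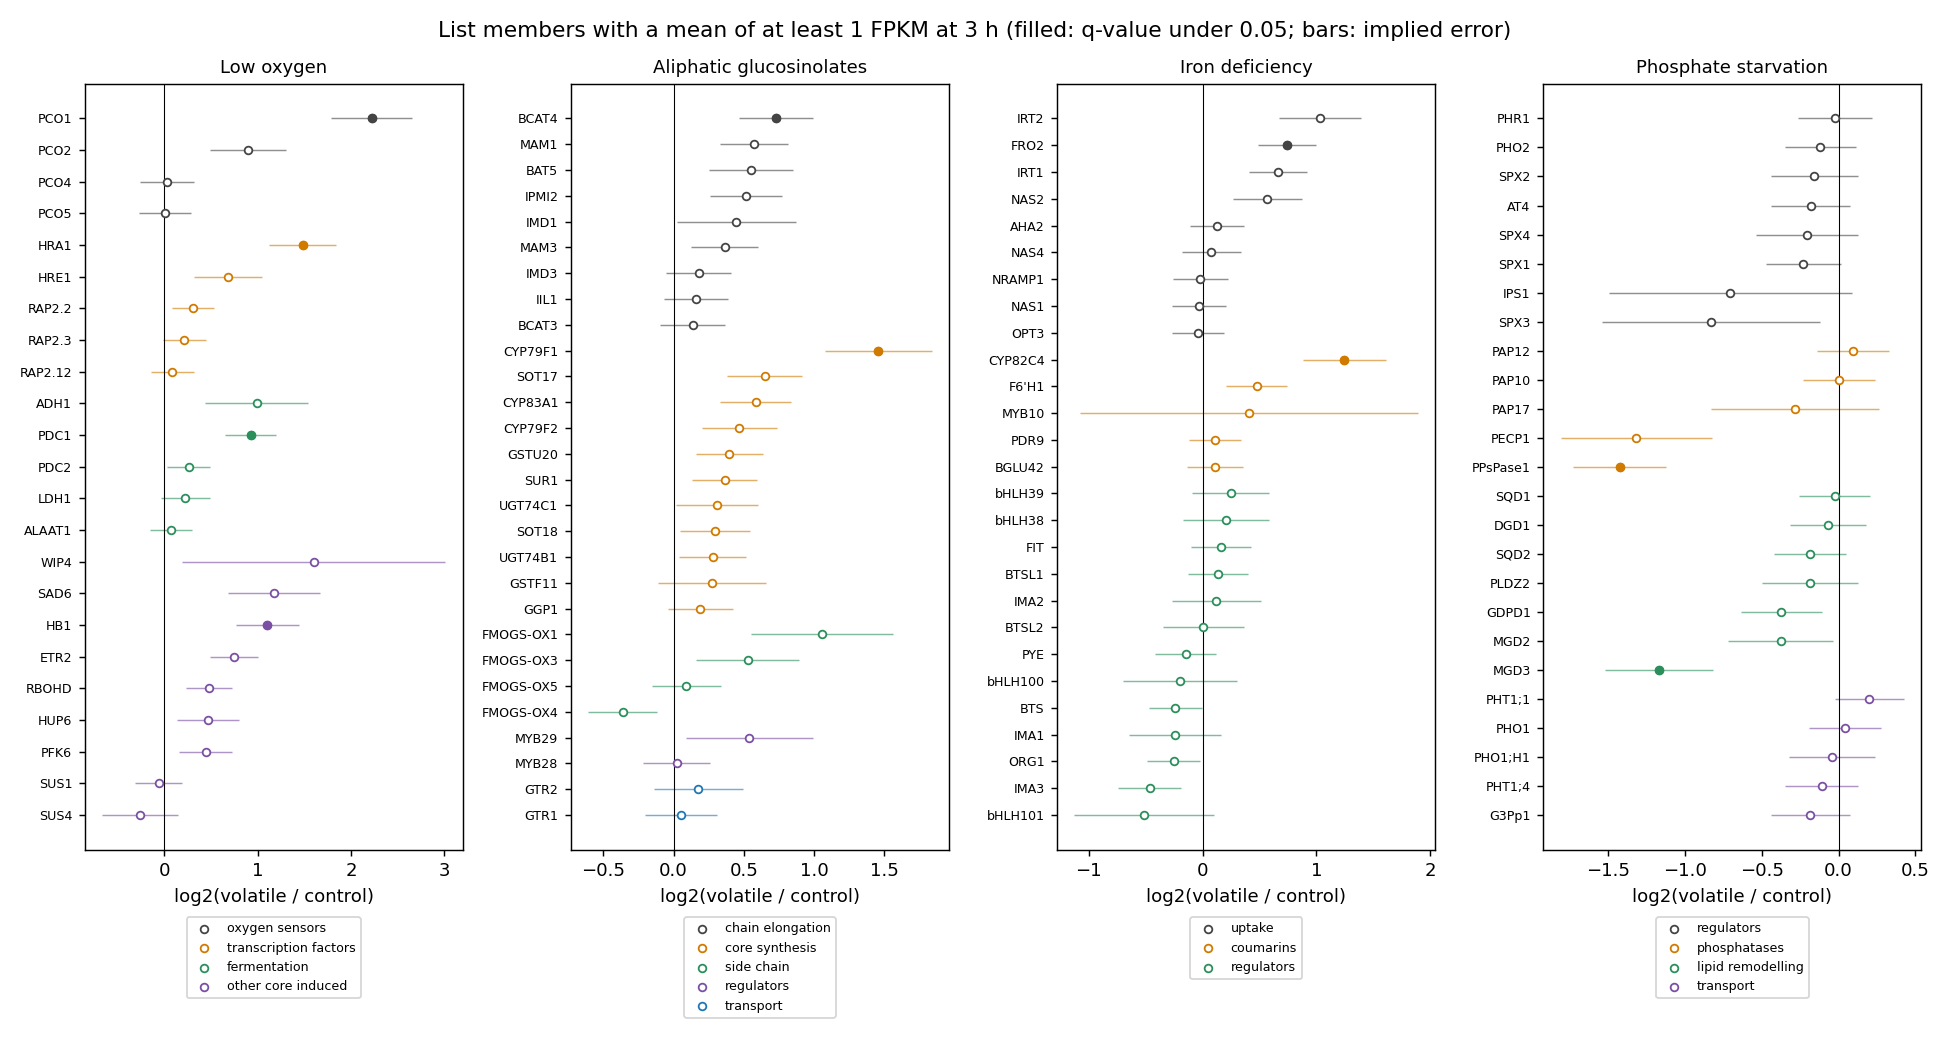
Log2 fold changes of volatile over control at 3 h for the members of 4 gene lists, coloured by role, with the implied error as bars; filled points have a q-value under 0.05. Low-oxygen and aliphatic glucosinolate members lie mostly to the right of 0 (21 of 23 and 27 of 28) and phosphate starvation members mostly to the left (21 of 25), while in the iron list 17 of 27 lie to the right.

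Iron acquisition and iron storage genes were called in opposite directions. FRO2 (AT1G01580, chromosome 1, 209395 to 213041), the root ferric reductase, rose to 22.0 FPKM in volatile seedlings against 13.1 FPKM in control seedlings, 0.75 ± 0.25. CYP82C4 (AT4G31940), which makes the coumarin sideretin, rose to 5.13 FPKM against 2.17 FPKM in control seedlings, 1.24 ± 0.36. FER1 (AT5G01600), a plastid ferritin, fell to 66.0 FPKM against 108.0 FPKM in control seedlings, -0.71 ± 0.25. The ferrous iron transporter IRT1 had 51.3 FPKM against 32.4 FPKM in control seedlings (p = 0.00025, q = 0.143) and IRT2 9.76 against 4.77 FPKM (p = 0.0002, q = 0.13) in the authors' deposited table, short of the threshold.

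The other uptake genes varied. The nicotianamine synthase NAS2 had 16.3 FPKM in volatile and 11.0 FPKM in control seedlings (p = 0.0077), while NAS1 had 41.8 and 42.7 FPKM, NRAMP1 30.3 and 30.7 FPKM and OPT3 107 and 110 FPKM, by the authors' deposited table. F6'H1, the first committed enzyme of coumarin synthesis, had 40.6 FPKM against 29.2 FPKM in control seedlings (p = 0.0111) by the authors' deposited table. The regulators of the pathway did not share a direction: 6 of 13 lay above 0 and their median was -0.15. FIT, the root factor that drives IRT1 and FRO2, had 20.8 and 18.6 FPKM, its partner bHLH39 10.5 and 8.86 FPKM, the ligase BTS 29.3 and 34.6 FPKM, and the signalling peptide IMA3 63.7 and 87.9 FPKM (-0.47 ± 0.28, p = 0.0162 in the authors' deposited table). FER3 had 119 and 114 FPKM, so the 2 ferritins with a row of their own did not share a direction, and FER2 and FER4 were measured only in merged rows. The vacuolar carrier VTL1 had 1.58 FPKM against 2.77 FPKM in control seedlings (p = 0.039) by the authors' deposited table.

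Phosphate starvation genes supplied 2 of the 10 rows that fell. PPsPase1 (AT1G73010, chromosome 1), a pyrophosphatase strongly induced when phosphate is short, fell to 7.50 FPKM in volatile seedlings against 20.2 FPKM in control seedlings, -1.43 ± 0.30. MGD3 (AT2G11810, chromosome 2), a galactolipid synthase that replaces phospholipids under phosphate shortage, fell to 2.94 FPKM against 6.62 FPKM in control seedlings, -1.17 ± 0.35. PECP1, a phosphatase of phosphoethanolamine and phosphocholine, had 1.84 FPKM against 4.60 FPKM in control seedlings, -1.32 ± 0.49, and the authors' deposited table lists p = 0.0006 and q = 0.254.

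Over the 25 members of the list, 21 lay below 0, with a median of -0.18; 4 lay below 0 with an unadjusted p-value under 0.05 by the authors' deposited table, and none above 0. The differences were uneven by role. All 8 regulators lay below 0, but none had a p-value under 0.05: PHR1 had 22.8 and 23.2 FPKM, its inhibitor SPX1 51.1 and 59.9 FPKM, SPX3 0.876 and 1.56 FPKM, and the non-coding IPS1 1.69 and 2.75 FPKM. All 7 lipid remodelling members lay below 0, among them MGD2, at 3.29 and 4.28 FPKM, and GDPD1, at 33.9 and 43.9 FPKM (p = 0.0447) by the authors' deposited table. Transport genes did not share a direction: the main root importer PHT1;1 had 121 FPKM in volatile and 105 FPKM in control seedlings, and PHT1;4 37.6 and 40.6 FPKM.

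Of the other called genes, CYP81D8 stood in the detoxification list and BCB in the copper list, and the rest stood in no list. CYP81D8 (AT4G37370), a cytochrome P450 known from responses to reactive chemicals, fell to 1.36 FPKM in volatile seedlings against 5.16 FPKM in control seedlings, -1.93 ± 0.42, the lowest fold change among the called rows. BCB (AT5G20230), a blue copper-binding protein, fell to 9.93 FPKM against 20.7 FPKM in control seedlings, -1.06 ± 0.30. AT2G43620, of the chitinase family, fell to 16.0 FPKM against 39.1 FPKM in control seedlings, -1.29 ± 0.27. AT1G51820, a kinase with leucine-rich repeats, fell to 1.20 FPKM against 2.96 FPKM in control seedlings, and AT3G22060, related to receptor-like kinases, fell to 13.7 FPKM against 26.1 FPKM. AT4G01870, a protein like bacterial TolB, fell to 43.5 FPKM against 71.9 FPKM in control seedlings, and AT2G05540, a glycine-rich protein, fell to 39.1 FPKM against 73.2 FPKM. AT1G19530, which RefSeq names a DNA polymerase epsilon catalytic subunit, rose to 11.7 FPKM against 4.96 FPKM in control seedlings, 1.24 ± 0.39.

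**Figure D3:**
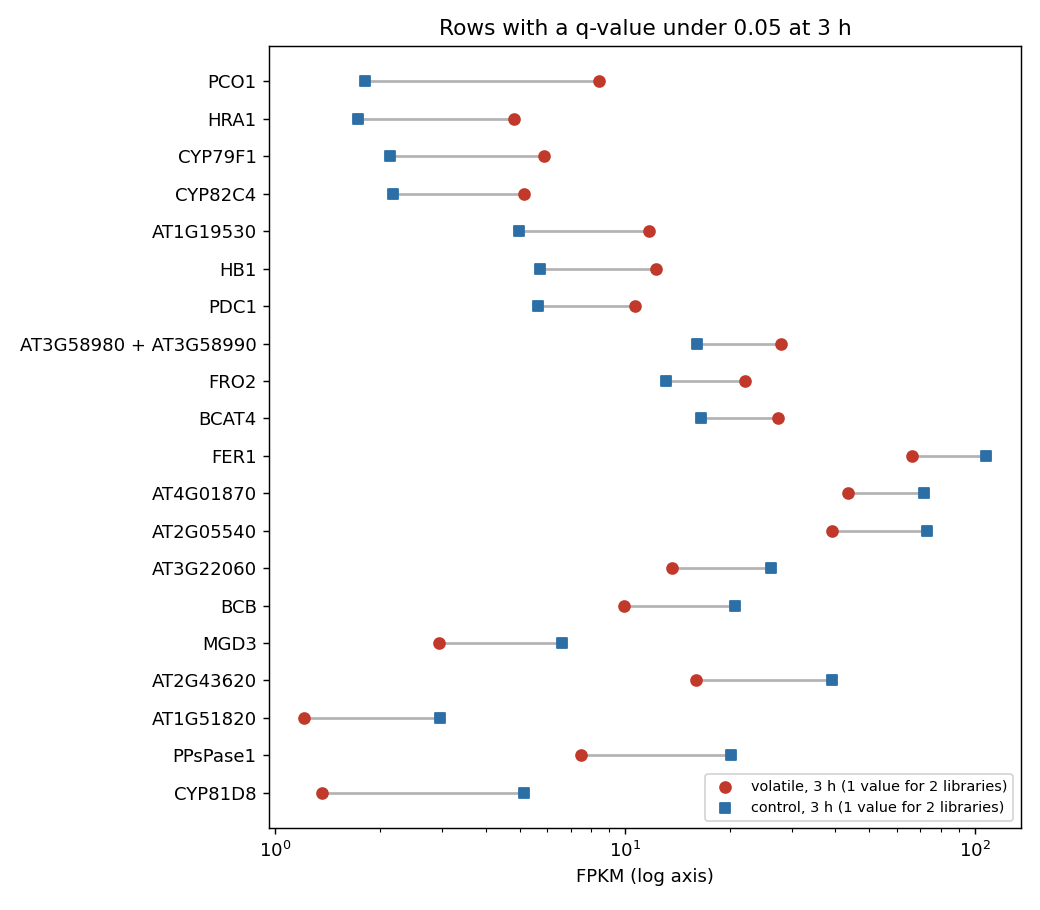
FPKM on a log axis (horizontal) of the 20 rows with a q-value under 0.05 at 3 h, by gene (vertical), with the volatile value as a red circle and the control value as a blue square; each is 1 value for 2 libraries. PCO1, at 8.42 FPKM in volatile and 1.81 FPKM in control seedlings, has the longest line, and FER1, at 66.0 and 108.0 FPKM, the highest control level.

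Most members of the lists around these genes were not called. In the detoxification list 26 of 34 members lay below 0, with a median of -0.12, 1 called and 3 lower at an unadjusted p-value under 0.05, among them the glucosyltransferase UGT75B1, at 34.5 FPKM in volatile and 50.9 FPKM in control seedlings (p = 0.00095) by the authors' deposited table. The 34 glutathione S-transferases had a median of -0.01. Copper genes other than BCB had p-values above 0.05 by the authors' deposited table: the importer COPT2 had 33.0 and 29.9 FPKM, the copper superoxide dismutases CSD1 191 and 221 FPKM and CSD2 117 and 136 FPKM, and the iron superoxide dismutase FSD1 673 and 577 FPKM. Small heat shock proteins had 3 of 6 members lower at an unadjusted p-value under 0.05, against 1.21% of all tested members, and none called. HSP17.8 was 1 of the 3, at 3.35 FPKM against 5.75 FPKM in control seedlings (p = 0.00985), by the authors' deposited table.

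Defence hormone lists held no call. Salicylic acid genes had 5 of 13 members above 0 and a median of -0.03, with the synthesis enzyme ICS1 at 6.71 FPKM in volatile and 6.02 FPKM in control seedlings and the marker PR5 at 5.04 and 3.98 FPKM. Jasmonate genes had 16 of 26 above 0 and a median of 0.05, with the synthesis enzyme LOX2 at 18.3 and 16.7 FPKM, the repressor JAZ1 at 15.9 and 13.6 FPKM, and the ethylene-jasmonate factor ORA59 at 3.25 and 2.24 FPKM. No member of either list had a p-value under 0.05 by the authors' deposited table. Pattern-triggered immunity genes had a median of -0.07, with RBOHD, named above, the only p-value under 0.05; the receptor FLS2 had 5.48 and 5.13 FPKM and the kinase FRK1, an early marker, 0.941 and 1.77 FPKM. Of 45 WRKY factors 31 lay below 0, with WRKY18 at 10.3 FPKM against 7.16 FPKM in control seedlings (p = 0.0104), WRKY75 at 2.13 against 4.29 FPKM (p = 0.0117), and WRKY40 at 1.03 against 2.36 FPKM (p = 0.0427) by the authors' deposited table. The ankyrin protein ACD6 had 1.04 FPKM against 2.33 FPKM in control seedlings (p = 0.00025), the receptor-like kinase CRK11 2.68 against 4.72 FPKM (p = 0.0004) and HR4 11.0 against 18.5 FPKM (p = 0.00045), all short of the q-value threshold, by the authors' deposited table.

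Several lists leaned to one side by small amounts with no call. Sugar starvation genes had 16 of 18 members below 0 and a median of -0.27, with 4 under an unadjusted p-value of 0.05 by the authors' deposited table. The dormancy-associated DRM2 (AT2G33830) had 512 FPKM in volatile and 775 FPKM in control seedlings (-0.60 ± 0.23, p = 0.0002, q = 0.13), the dark-inducible DIN1 60.5 and 93.6 FPKM (-0.63 ± 0.24, p = 0.0004), and the asparagine synthetase DIN6 4.85 and 6.73 FPKM (p = 0.023) by the authors' deposited table. Starch genes had 18 of 21 members above 0, with a median of 0.09 and no p-value under 0.05.

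Genes of abscisic acid and dehydration had 21 of 22 members below 0, a median of -0.19 and no call. KIN2 had 305 FPKM in volatile and 425 FPKM in control seedlings (p = 0.00415), RD29A 24.5 and 32.0 FPKM (p = 0.024), COR15B 8.41 and 12.6 FPKM (p = 0.0339) and the dehydrin RAB18 0.730 and 1.37 FPKM (p = 0.0684) by the authors' deposited table. The seed markers, which also respond to abscisic acid in maturing seeds, were lower as well, with 6 of 6 below 0 and a median of -1.34 at levels of 0.155 to 0.546 FPKM in volatile and 0.386 to 1.42 FPKM in control seedlings; their part in the result was not tested. CYP707A3, which breaks down abscisic acid, had 5.85 FPKM against 3.17 FPKM in control seedlings (p = 0.0003, q = 0.162) by the authors' deposited table.

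Cytokinin genes had 14 of 15 members below 0 and a median of -0.14, with no p-value under 0.05 by the authors' deposited table; the response regulators ARR5, at 9.62 FPKM in volatile and 12.6 FPKM in control seedlings, and ARR6, at 14.6 and 18.1 FPKM, had the smallest. Root hair genes had 15 of 17 above 0 and a median of 0.26. The cell wall protein PRP1 had 8.44 FPKM against 5.83 FPKM in control seedlings (p = 0.0194) and RHS18, a root hair peroxidase, 8.90 against 6.12 FPKM (p = 0.02), whereas RSL4, the factor that sets root hair growth, had 2.91 and 3.69 FPKM, by the authors' deposited table. The 14 root markers summed to 2803 FPKM in volatile and 2673 FPKM in control seedlings, with a median log2 fold change of 0.06. PYK10 alone gave 2465 and 2359 FPKM of these sums, and EXPA7, EXPA18, RHS12 and PRP3 are also in the root hair list. The part of the root markers in the root hair result was not tested. Genes of cytosolic ribosomal proteins, 32 of 38, and of photosynthesis, 34 of 50, lay above 0, with medians of 0.08 and 0.05. All members at 500 FPKM and above had a median of 0.07. They were not split by function and include photosynthesis genes such as RBCS1A.

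**Figure D4:**
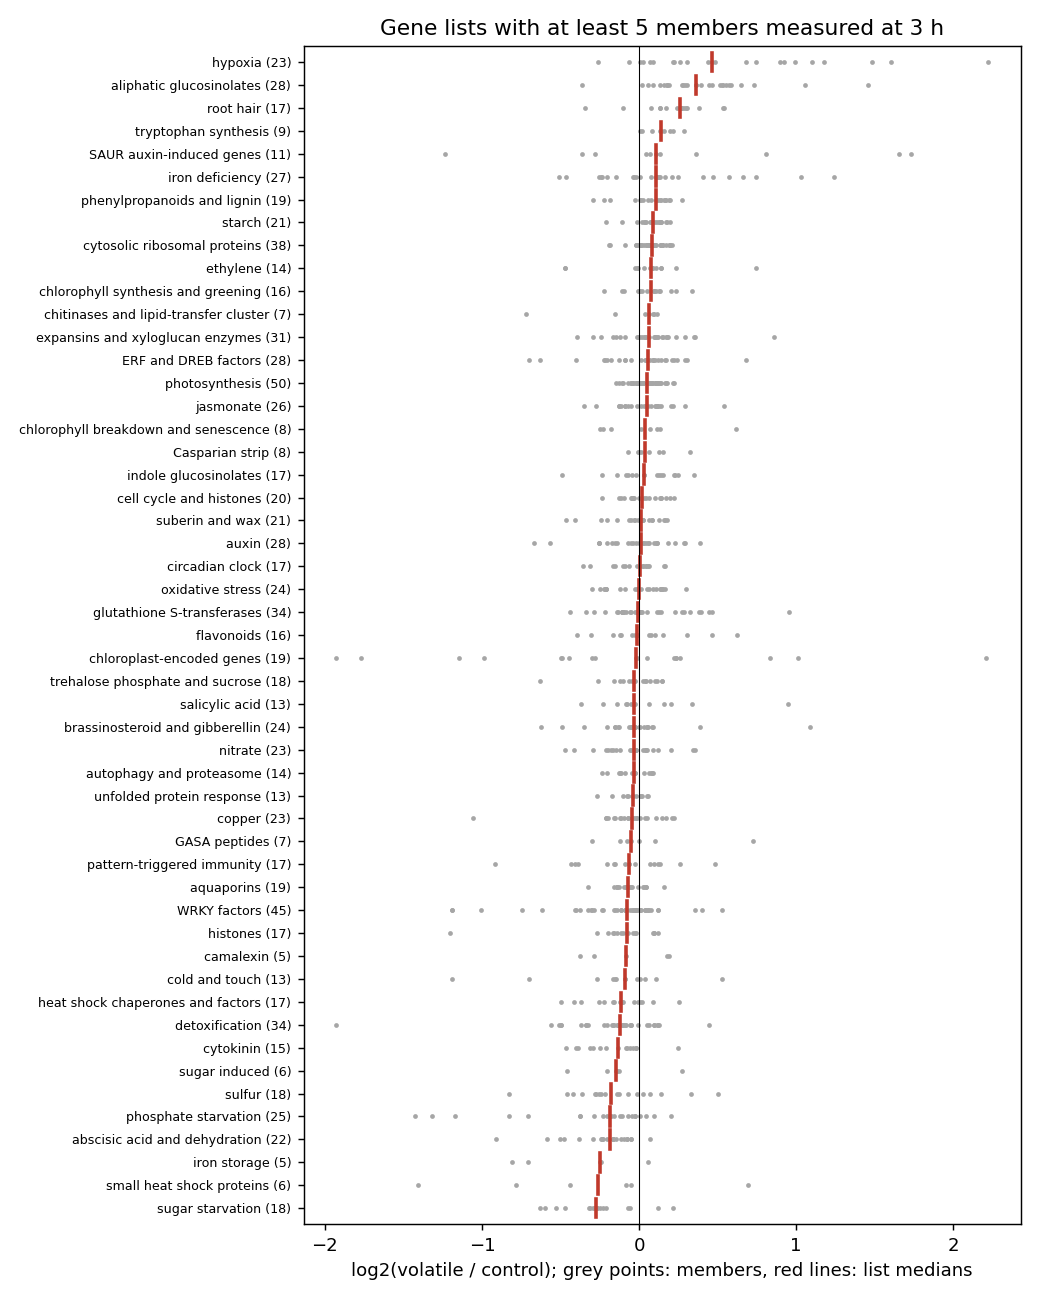
Gene lists with at least 5 members measured at 3 h, ordered by median from top to bottom, with the number of members in brackets; the horizontal axis is the log2 fold change of volatile over control, grey points are members and red lines medians. Low-oxygen genes are at the top with 0.47 and sugar starvation genes at the bottom with -0.27, and most medians lie within 0.1 of 0.

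In all, 54 lists were described. Of these 7 held a called row and 47 held none, and 34 had a median within 0.1 of 0. No member was found among the 8 genes of terpene and volatile synthesis listed. The lists held 13 of the 19 called rows that belong to a single gene. They were chosen with earlier results of these data known, so this count lends the lists no support.

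Members with the highest and lowest fold changes were also ranked without regard to the lists. Among single-gene rows averaging at least 5 FPKM, 242 of 12980 tested had an unadjusted p-value under 0.05 by the authors' deposited table, and the 8 highest included the peroxidase AT1G49570, at 7.85 FPKM in volatile and 3.74 FPKM in control seedlings (1.07 ± 0.35, p = 0.0001, q = 0.0749), and RPB5D, a subunit of RNA polymerase, at 8.22 and 4.44 FPKM (p = 0.0072). The 8 lowest included CLE26, a signalling peptide, at 2.22 and 9.63 FPKM (-2.12 ± 1.32, p = 0.0446), the uncharacterized AT5G44572, at 17.8 and 36.3 FPKM (-1.03 ± 0.38, p = 0.0003), and GAT1_2.1, a glutamine amidotransferase, at -1.26 ± 0.53 (p = 0.0018) by the authors' deposited table. AT1G69050 and AT5G54585, both uncharacterized, had -1.47 ± 0.80 and -1.03 ± 0.45. None of these was called. CLE26 had the lowest fold change of the 16 and an implied error more than 4 times that of PPsPase1.

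The same rows were then looked up at 24 and 48 h, each against control seedlings of its own time; the difference between times was not tested. Of the 10 rows that rose at 3 h, 8 lay above 0 at 24 h and 10 at 48 h, and 3 and 4 of them had a q-value under 0.05 there in the authors' deposited tables. The shares of all rows called at 24 and 48 h were not computed, so these counts have no base beside them. The rows were chosen because they passed at 3 h, and how far that choice shapes their later values was not tested. PCO1 had 13.9 FPKM in volatile and 2.79 FPKM in control seedlings at 24 h and 16.4 and 3.38 FPKM at 48 h. PDC1 had 14.7 and 6.84 FPKM at 24 h and 13.1 and 6.12 FPKM at 48 h. For FRO2 the order of the groups was the other way at 24 h, at 4.83 FPKM in volatile and 6.44 FPKM in control seedlings (p = 0.0752), and the 3 h order at 48 h, at 9.50 and 5.89 FPKM, by the authors' deposited table. Of the 10 rows that fell, 8 of the 9 with a value lay below 0 at 24 h and 3 of 10 at 48 h, with none called lower at either time. AT2G43620, the chitinase family gene, was called in the opposite direction at 48 h, at 33.7 FPKM in volatile and 15.3 FPKM in control seedlings.

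**Figure D5:**
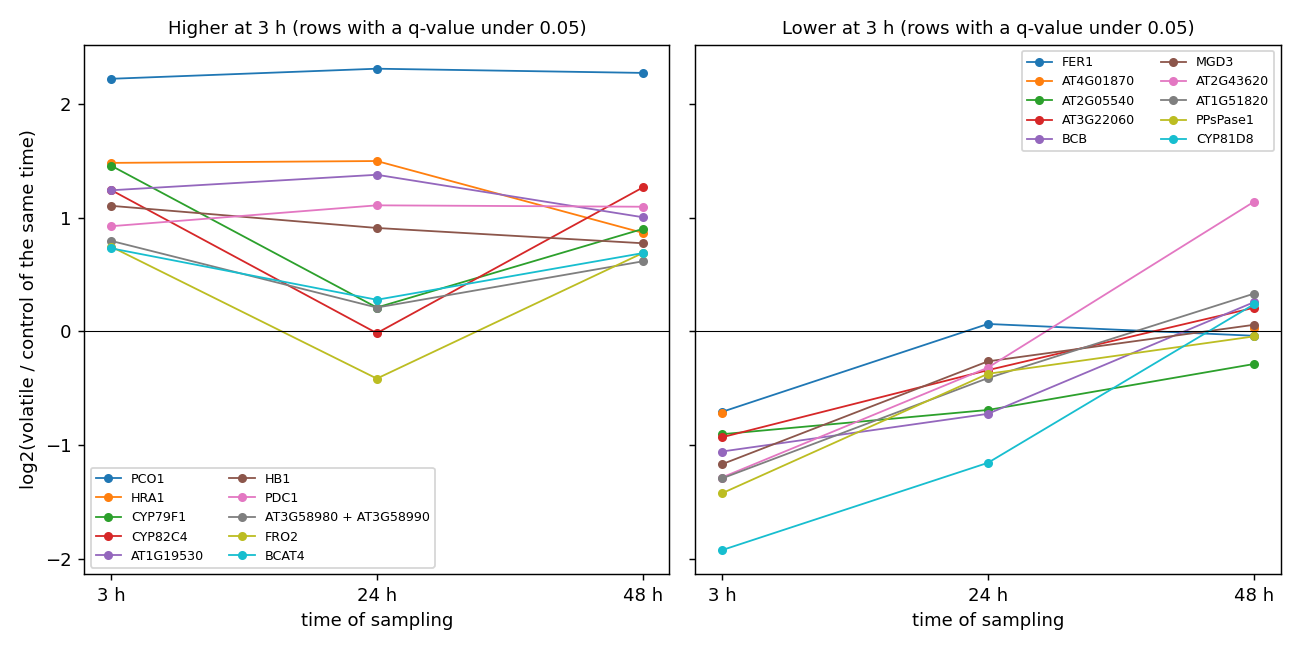
Log2 fold change of volatile over control of the same time (vertical axis) at 3, 24 and 48 h (horizontal axis) for the rows called at 3 h, those that rose on the left and those that fell on the right; lines join the values of 1 row, and AT4G01870 has none at 24 h. PCO1 stays near the top throughout, with 2.22 at 3 h and 2.27 at 48 h, and AT2G43620 crosses 0, with -1.29 at 3 h and 1.14 at 48 h.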

How the data were processed

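RNA of whole seedlings was extracted with a Qiagen RNeasy Plant Mini kit and sequenced on an Illumina HiSeq platform, per the labels' protocols. Trimmomatic 3.6, TopHat and the build TAIR10 are named in the submitters' processing notes. The FPKM values, 1 per gene and group, were computed by the authors, per the file headers. The p-values and q-values and the test statistic, a score, are those the authors deposited; the tool that made them, and whether counting used strand, were not found in the labels or headers. The time of the table is known from its name alone. Because the table gives no value per library, depth is unknown, no model was fitted over samples, and calls are the authors' own q-values under 0.05. Recomputed Benjamini-Hochberg q-values differed from them by at most 4.75e-07. The deposited log2 column was not used, as some of its cells are unreadable; fold changes were recomputed without a pseudocount, and rows listed at 0 in a group have none. Table coordinates are printed counted from 1.

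Rows that merge genes (877 members) stayed out of the lists. The lists hold 989 hand-written entries, of which 14 found no locus, and 9 families taken by name. The members and lists were chosen with earlier results of these data known. Named genes were every called single-gene row, the 8 highest and 8 lowest fold changes with a mean of at least 5 FPKM and an unadjusted p-value under 0.05, list members with the smallest p-values and the usual markers of a list, the 5 most abundant rows and the 5 most abundant rows listed at 0 in 1 group. The row merging IPMI1, LBD41's row, AKN2, CYP707A3, ACD6, CRK11 and HR4 were added after their values were seen. Alternatives changed the filter, the adjustment, the pseudocount, the centring and the summary of a list. Python 3.11.15 with pandas 2.3.3 and SciPy 1.17.1 was used, and the code was tested on simulated data.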

Additional observations from a re-analysis of the deposited data

How the results depend on the processing

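Calls were the same to within 1.5 times under 3 of the alternatives: 11 higher and 11 lower with no filter on the mean, 7 and 7 at a mean of at least 5 FPKM, and 10 and 10 with q-values computed over the filtered rows alone. The 2 changes of filter kept the deposited q-values and altered only which rows were counted, so they do not test the calls. Every deposited call carried the smallest p-value listed, so under the new adjustment the calls could only stand or fall together. Reading the authors' deposited statistic as a normal deviate gave 2 higher and 7 lower. Of these, 4 are among the deposited calls (PCO1, CYP81D8, PPsPase1 and AT2G43620). The other 5 are the rows described under Other observations, whose statistic and p-value disagree strongly. All other deposited calls, among them HRA1, HB1, PDC1, CYP79F1, FRO2 and FER1, were not called this way. Why the statistic and the p-value differ was not tested. For the 29 genes recomputed, only the size of the fold change could move. A pseudocount added to both groups cannot change its sign, and centring shifted every value by the median of -0.01 alone. With a pseudocount of 1 FPKM, PCO1 went from 2.22 to 1.75 and FER1 from -0.71 to -0.70. Of 344 recomputed list medians, 17 changed sign, in 12 lists whose main medians lie within 0.0836 of 0; none of the 19 lists with a median of at least 0.1 in size did. No paired analysis was possible because the tables hold 1 value per gene and group, and leaving out a library was not possible for the same reason. Depth is unknown, and rows between 1 and 2 FPKM, with a median implied error of 0.56, limit what the test can find.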

Other observations

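The deposited statistic and p-value disagreed strongly in 5 members. AT2G40205 had 163 FPKM in volatile and 857 FPKM in control seedlings and the authors' deposited table lists a statistic of -313 beside p = 0.313. AT1G73165 had 5.12 and 19.4 FPKM with a statistic of -14.8 and p = 0.373, AT5G04238 had 22.0 and 8.89 FPKM with 14.8 and 0.537, AT4G26055 had 9.51 and 19.1 FPKM with -11.1 and 0.535, and AT3G20900 had 3.61 and 8.95 FPKM with -5.97 and 0.503, all from the authors' deposited table. None was called, and the implied error of such rows is not usable.

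Of the members, 29 were listed at 0 in 1 group, 12 in volatile and 17 in control seedlings. Their rows were short: 22 of 29, or 75.9%, spanned under 500 bases, against 1.12% of all members. None was called, and 3 had an unadjusted p-value under 0.05 by the authors' deposited table. The 5 with the highest mean were AT3G51642, listed at 0 in volatile and at 501 FPKM in control seedlings, AT1G65541, at 362 FPKM in volatile and listed at 0 in control seedlings, the chloroplast row ATCG00080, at 278 FPKM and listed at 0, AT4G19829, listed at 0 and at 171 FPKM, and AT4G09649, at 145 FPKM and listed at 0.

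Outside the members, 2 rows under a mean of 1 FPKM or without a gene name were called in the authors' deposited table; AT2G43470, the named row, was listed at 0 in volatile seedlings and at 0.618 FPKM in control seedlings.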
